A study of Mus musculus with 14 samples.

Results

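Neuropeptide precursors are the proteins from which neurons cut and modify small signalling peptides. The 10 genes described here were chosen by name as precursor genes of cortical neurons: Cartpt, Tac1, Tac2, Penk, Npy, Sst, Cck, Vip, Crh and Adcyap1. All 10 were present among the 25229 gene symbols of the progenitor table and the 55353 of the postmitotic table, and all 10 passed the filter on low counts in both. RNA came from microdissected layer II/III of the mouse cerebral cortex at postnatal day 5, and 14 libraries fall into 4 groups. Every animal carried Lhx2lox/lox, a conditional allele of the LIM-homeodomain factor Lhx2. In the progenitor experiment, in utero electroporation at E15.5 put either EGFP alone (control, n = 4) or Cre-EGFP (labelled mutant, n = 4) into cortical progenitors. In the postmitotic experiment, EGFP alone was electroporated. The recipients were Lhx2lox/lox (control, n = 3) or NexCre/+; Lhx2lox/lox (labelled mutant, n = 3), in which Cre is made from the Nex locus in young excitatory neurons. The study asks what Lhx2 does in progenitors and in postmitotic neurons for the dendrites of these cells, and the comparison made here is mutant against control within each table. Tissue was microdissected, and no sort of the electroporated cells is stated.

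Peptide precursors enter the secretory pathway, are sorted into dense core vesicles, and are cut there by proprotein convertases before release. The peptides act on G protein-coupled receptors of neighbouring neurons, glia and vessels. In the cortex, Sst, Npy and Vip mark classes of GABA-releasing interneurons, Cck is made by excitatory neurons and by some interneurons, and Adcyap1, the precursor of PACAP, is made by excitatory neurons. Cortical interneurons are born outside the cortex, so neither plasmids electroporated into cortical progenitors nor NexCre are known to act in most of them.

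Progenitor libraries held 22677019 to 29497595 counts each, and postmitotic libraries 21605777 to 25891416. Every progenitor control (24947089 counts or more) was deeper than every progenitor mutant (24002981 or less). Summed counts of 4 Y-linked genes exceeded 1 CPM (counts scaled to a common library total) in 0 of 4 progenitor controls and 3 of 4 progenitor mutants (2, 3 and 4), so sex and label cannot be fully told apart there. Progenitor mutant 3 held Y-linked counts together with 554 CPM of Xist, which is made from an inactive X. In the postmitotic experiment the limit was passed in 2 of 3 controls and 1 of 3 mutants. Lhx2 itself did not show the deletion in counts summed over the whole gene. It ranged from 120 to 139 CPM in progenitor controls and from 114 to 140 CPM in progenitor mutants, and it was higher in postmitotic mutants (171 to 184 CPM) than in their controls (143 to 150 CPM, adjusted p = 0.0276 in edgeR). That Lhx2 call was lost in edgeR without postmitotic control 1, 2 or 3 or mutant 2 or 3 (adjusted p = 0.0626 to 0.184) and in the joint fit of 14 libraries (0.0555), with log2 fold changes from 0.27 to 0.31. The directions below are therefore those of the libraries labelled mutant. All 20 markers of upper-layer excitatory neurons passed the filter in both experiments, with summed levels of 3435 to 3849 CPM in progenitor and 3758 to 3961 CPM in postmitotic controls. Their sums were 3468 to 3989 and 3643 to 3863 CPM in the mutants. Of these 20, 7 rose and 3 fell in the progenitor mutants, and 1 rose and 6 fell in the postmitotic mutants. Of all genes tested, 12% rose and 11.4% fell in the progenitor mutants, and 0.895% and 1.06% in the postmitotic mutants. With the Y-linked CPM as a covariate 3 of the 20 markers rose in the progenitor mutants. In the joint fit 3 of them fell in the postmitotic mutants. The dissected tissue also held interneuron, glial and vascular transcripts. The labels do not say that each library is a separate animal, so a p-value measures the spread among libraries, which may be technical in part.

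The precursors spanned a wide range of levels in control tissue. Per kilobase of exon, Sst was the highest in the progenitor controls at 69.0 ± 13.2 CPM per kb (SD, n = 4), followed by Cck at 41.4 ± 6.49 and Npy at 37.8 ± 4.18. The ranges of Sst and Cck did not overlap, while those of Cck and Npy did. The other 7 lay far lower. Adcyap1 stood at 5.23 ± 0.604 CPM per kb, Vip at 4.63 ± 0.926, Cartpt at 4.10 ± 0.649 and Tac2 at 3.83 ± 0.652, and each of these overlapped its neighbour in the order. Crh (2.83 ± 0.308) and Penk (2.48 ± 0.455) followed, and Tac1 was the lowest at 0.488 ± 0.236 CPM per kb. In the postmitotic controls the same 5 genes led in the same order: Sst (44.2 ± 7.26 CPM per kb, SD, n = 3), Cck (37.6 ± 8.29), Npy (31.7 ± 4.40), Adcyap1 (6.33 ± 0.673) and Vip (3.11 ± 0.359). Sst, Cck and Npy overlapped there, whereas Adcyap1 stood apart from its neighbours. Cartpt was ninth of 10 in the postmitotic controls at 0.864 ± 0.282 CPM per kb. Levels of the 2 tables come from separate processing and are not compared by a test.

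**Figure D1:**
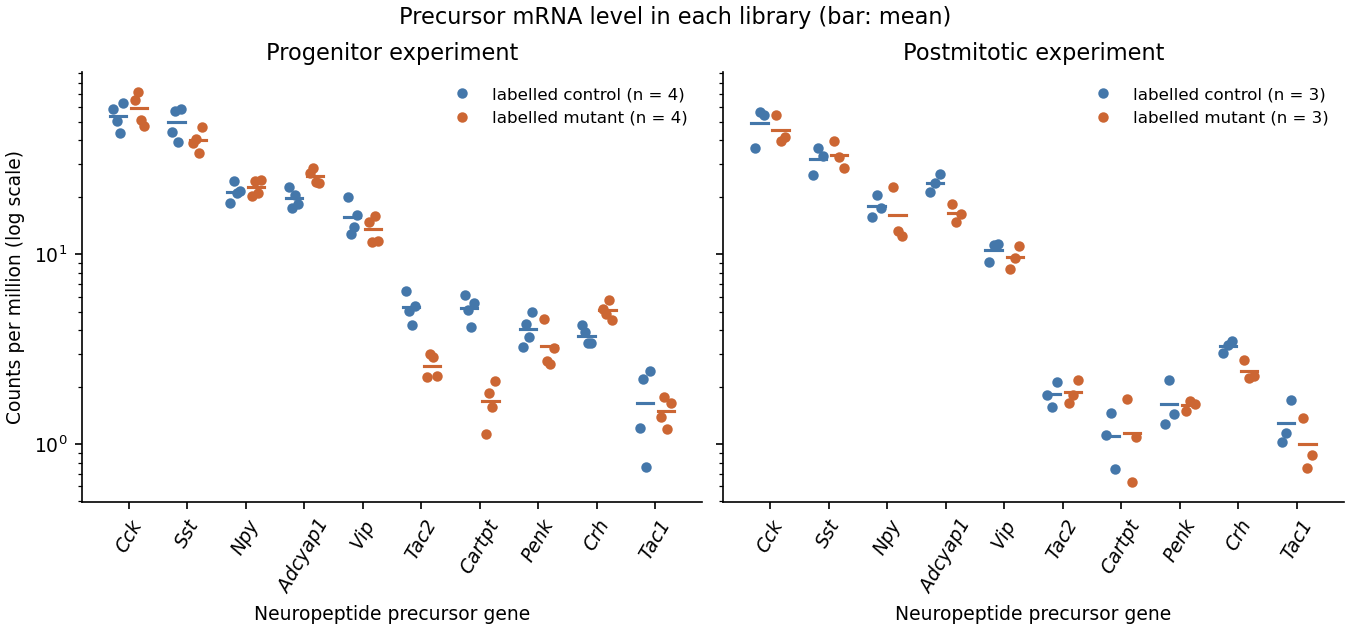
Level of each precursor in every library, in CPM on a log axis, for the progenitor experiment (left, n = 4 per group) and the postmitotic experiment (right, n = 3 per group); points are libraries and bars are means. Cck and Sst lead in both panels, and Cartpt and Tac2 of the progenitor mutants lie below all their controls.

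Several precursor genes are textbook targets of CREB, a factor that answers cAMP and calcium by binding the cAMP response element (CRE). The 250 bases before the RefSeq start of each gene (GRCm38.p6) were available for 8 of the 10 genes. They were searched on both strands for the full CRE TGACGTCA, for its core TGACG, which every full CRE holds on each strand, and for the homeodomain core TAATTA. Cartpt and Sst held the full CRE, which 1.55% of all 32851 promoters of this length hold. The core was found in 6 of 8 (Cartpt, Sst, Tac1, Cck, Vip and Adcyap1), against 17.8% of all promoters, and was not found in these windows of Tac2 and Npy. TAATTA occurred once, in Tac1, against 4.84% of all promoters. A match is a description of letters, not evidence of binding. For each gene the 30 bases around the full CRE, or otherwise around the core nearest the start, are given 5′ to 3′ on the strand of the gene, with the CRE or its core in capitals (CGTCA is the core read on the opposite strand), to show the shared letters of genes whose mRNAs behaved differently below.
Cartpt, chr13:99900777-99900806, minus strand: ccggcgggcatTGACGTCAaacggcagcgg
Sst, chr16:23890874-23890903, minus strand: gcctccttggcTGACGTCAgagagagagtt
Vip, chr10:5639126-5639155, plus strand: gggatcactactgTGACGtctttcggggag
Adcyap1, chr17:93198913-93198942, plus strand: gggactaggatgcTGACGtcttttactgat
Cck, chr9:121495725-121495754, minus strand: tcctgctggactgCGTCAgcactgggtaaa
Tac1, chr6:7555005-7555034, plus strand: ggctctacaggctCGTCAcgcctgagataa

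In the progenitor experiment, 4 of the 10 precursors changed: Cartpt and Tac2 fell, and Adcyap1 and Crh rose (threshold of 0.05 on p-values from edgeR's quasi-likelihood test, adjusted by Benjamini-Hochberg over all genes tested). Of all 15295 genes tested, 23.4% were called, 12% higher and 11.4% lower. The median log2 fold change was -0.18 over the precursors and 0.00 over all genes tested. The same 4 precursors had no overlap between the groups, as did 27% of all genes tested.

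Cartpt encodes the precursor of CART peptides, which modulate feeding, reward and stress circuits. It stood at 6.11, 5.11, 4.15 and 5.57 CPM in controls 1 to 4 and at 1.13, 1.85, 1.58 and 2.16 CPM in mutants 1 to 4. Every mutant library was below every control. Its log2 fold change was -1.64 ± 0.20 (SE), a 3.11-fold lower level, with a 95% interval of -2.08 to -1.19 and adjusted p = 0.000358 (edgeR). The gene lies on chromosome 13, 99898489 to 99901091, minus strand (GRCm38/mm10, GENCODE M21), and no annotated gene overlaps it.

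Tac2 encodes the precursor of neurokinin B, a tachykinin that acts mainly on the receptor Tacr3. It had 6.43, 5.04, 4.27 and 5.37 CPM in controls 1 to 4 and 2.26, 2.97, 2.86 and 2.29 CPM in mutants 1 to 4. All mutants lay below all controls. The log2 fold change was -1.02 ± 0.17 (SE), a 2.03-fold lower level, with a 95% interval of -1.39 to -0.65 and adjusted p = 0.00176 (edgeR). Tac1, the related precursor of substance P and neurokinin A, varied more between control libraries (0.755 to 2.44 CPM) than between the groups. It had 1.20 to 1.77 CPM in mutants and a log2 fold change of -0.15 ± 0.33, which became 0.02 without control 2, 0.10 without control 4 and -0.39 without control 3. With 20 to 71 counts per library, its 95% interval ran from -0.87 to 0.57.

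Adcyap1, the PACAP precursor, had 22.6, 17.5, 20.5 and 18.4 CPM in controls 1 to 4 and 26.9, 28.5, 24.2 and 23.7 CPM in mutants 1 to 4. Every mutant was above every control, although mutant 4 exceeded control 1 by only about 1 CPM. It rose by 0.39 ± 0.09 on the log2 scale (adjusted p = 0.0119, edgeR), or 1.31-fold. The 250 bases before its first RefSeq start (chr17:93198767-93199016, plus strand, GRCm38.p6) are shown because this was the only precursor called in both experiments, with the CRE core in capitals.
Adcyap1 promoter: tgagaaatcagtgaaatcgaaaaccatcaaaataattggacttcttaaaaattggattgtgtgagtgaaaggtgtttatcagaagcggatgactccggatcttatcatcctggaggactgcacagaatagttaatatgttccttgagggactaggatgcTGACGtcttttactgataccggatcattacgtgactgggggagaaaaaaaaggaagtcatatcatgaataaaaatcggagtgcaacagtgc

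Crh encodes corticotropin-releasing hormone, made in the cortex mainly by interneurons. It had 4.23, 3.89, 3.40 and 3.40 CPM in controls 1 to 4 and 5.18, 4.87, 5.73 and 4.50 CPM in mutants 1 to 4. Mutants were again above all controls, with a rise of 0.44 ± 0.14 on the log2 scale (adjusted p = 0.0367, edgeR), or 1.36-fold. This call was the least firm of the 4. It was lost without control 2, 3 or 4 and without mutant 1, 2 or 3, with adjusted p from 0.056 to 0.11 in edgeR and log2 fold changes from 0.38 to 0.47, and it held without control 1 or mutant 4.

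The other precursors did not pass the test in the progenitor experiment. Sst, the precursor of somatostatin, an inhibitory peptide of dendrite-targeting interneurons, had 39.3 to 58.7 CPM in controls and 34.2 to 46.8 CPM in mutants (log2 fold change -0.31 ± 0.14, adjusted p = 0.145, edgeR). Without control 3, the lowest of the controls, it was -0.41 with adjusted p = 0.0384 in edgeR. Vip, the peptide of interneurons that contact other interneurons, had 12.9 to 20.0 CPM in controls and 11.7 to 16.0 CPM in mutants (-0.22 ± 0.15). Npy, whose peptide damps transmitter release, had 18.6 to 24.4 CPM and 20.2 to 24.6 CPM (0.08 ± 0.09), and its 95% interval of -0.13 to 0.29 was the narrowest among the uncalled genes. Cck, the precursor of cholecystokinin, had 43.8 to 62.9 CPM and 47.5 to 72.0 CPM (0.13 ± 0.16). Penk, the enkephalin precursor, had 3.26 to 4.95 CPM and 2.66 to 4.57 CPM (-0.30 ± 0.20), and A830012C17Rik lies on the opposite strand of its locus, so the reads may not be separable where counting ignored strand.

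Sex differed between the progenitor groups besides the label. With the summed Y-linked CPM as a covariate, Cartpt (-2.22, adjusted p = 0.00192) and Tac2 (-1.14, adjusted p = 0.0344) stayed called in edgeR. Crh (0.55, adjusted p = 0.124) and Adcyap1 (0.42, adjusted p = 0.0902) were no longer called in that edgeR fit. Progenitor mutant 1 was, like the 4 controls, below 1 CPM of Y-linked counts (0 CPM, against at most 0.038 CPM in the controls). Mutants 2 to 4 held 99.4 to 170 CPM. The label effects of that fit therefore rest largely on mutant 1, and they cannot fully separate sex from label. The values of mutant 1 were 1.13 CPM for Cartpt, 2.26 CPM for Tac2, 5.18 CPM for Crh and 26.9 CPM for Adcyap1. Each lay outside the range of the 4 controls, on the same side as the other mutants. These 4 genes had no overlap between the groups, so this was bound to hold and is no separate test of sex.

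**Figure D2:**
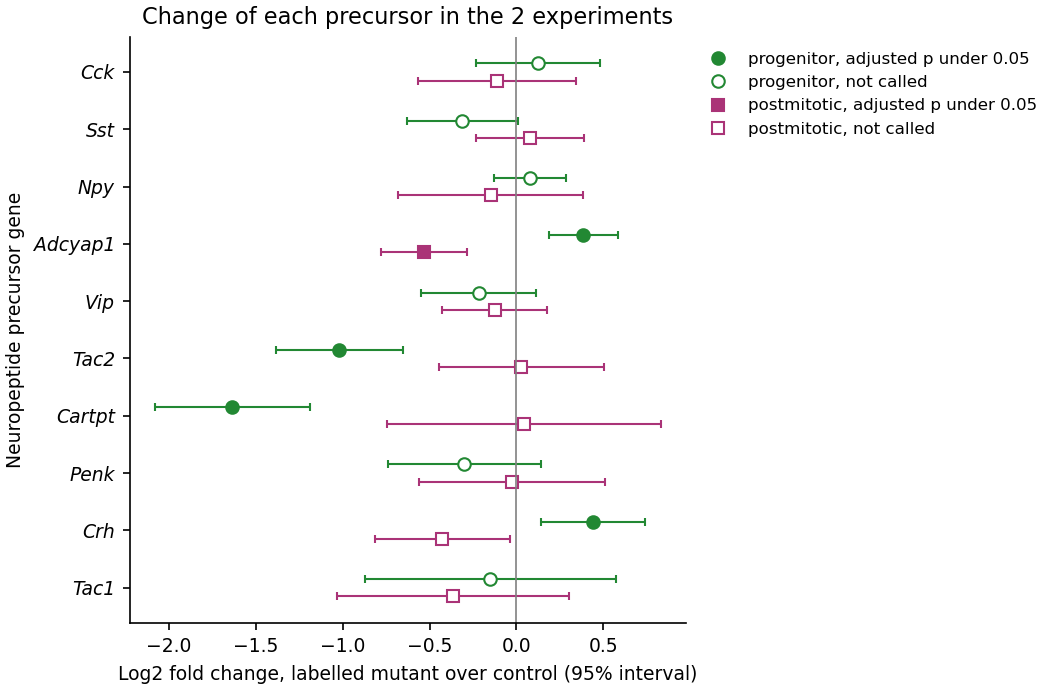
Log2 fold change of each precursor, labelled mutant over control, with its 95% interval, in the progenitor (circles) and postmitotic (squares) experiments; filled symbols passed an adjusted p under 0.05. The progenitor intervals of Cartpt (-1.64) and Tac2 (-1.02) lie wholly below 0, their postmitotic intervals span 0, and Adcyap1 lies on opposite sides of 0 in the 2 experiments.

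In the postmitotic experiment, 1 of the 10 precursors changed. Adcyap1 fell, while 1.96% of all 17775 genes tested were called and 1.06% were called lower. It had 21.4, 23.8 and 26.5 CPM in controls 1 to 3 and 18.4, 14.9 and 16.4 CPM in mutants 1 to 3, so that all mutants were below all controls. The log2 fold change was -0.53 ± 0.11 (SE), a 1.45-fold lower level, with a 95% interval of -0.78 to -0.29 and adjusted p = 0.0276 (edgeR). The call was lost without control 2 (adjusted p = 0.127), control 3 (0.164) or mutant 2 (0.108) in edgeR, with log2 fold changes from -0.53 to -0.45. The median over the 10 precursors was -0.12, and that over all genes tested was 0.00.

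Crh was lower in all postmitotic mutants than in any control, with 2.77, 2.24 and 2.30 CPM against 3.02, 3.32 and 3.52 CPM, but did not pass the test (log2 fold change -0.43 ± 0.18, adjusted p = 0.378, edgeR). It and Adcyap1 were the 2 precursors without overlap, as were 16.4% of all genes tested. Cartpt had 1.11, 1.46 and 0.740 CPM in controls and 1.73, 0.629 and 1.09 CPM in mutants, from 16 to 43 counts per library. The mutant libraries lay on both sides of the controls (0.04 ± 0.37), with a 95% interval of -0.75 to 0.83. Tac2 had 1.58 to 2.13 CPM in controls and 1.65 to 2.17 CPM in mutants (0.03 ± 0.22, 95% interval -0.45 to 0.50).

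Among the interneuron peptides, Npy had 15.7, 20.6 and 17.5 CPM in postmitotic controls and 22.8, 13.4 and 12.5 CPM in mutants. Mutant 1 was above all controls and the other mutants were below them. The log2 fold change was -0.15 ± 0.23, and -0.47 without mutant 1 (adjusted p = 0.148, edgeR). Sst (26.1 to 36.4 CPM in controls, 28.7 to 39.7 CPM in mutants, 0.08 ± 0.14) and Vip (9.17 to 11.4 CPM and 8.37 to 11.1 CPM, -0.12 ± 0.14) overlapped between groups. So did Cck (36.6 to 56.4 CPM and 39.8 to 54.4 CPM, -0.11 ± 0.19), Penk (1.27 to 2.17 CPM and 1.49 to 1.69 CPM, -0.02 ± 0.25) and Tac1 (1.03 to 1.71 CPM and 0.747 to 1.37 CPM, -0.37 ± 0.31).

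The change differed between the experiments for 4 of the 10 precursors in the test of the interaction of experiment and label, against 6.94% of all 15643 shared symbols tested (3.1% higher and 3.84% lower). The difference is given as postmitotic minus progenitor log2 fold change. It was -0.92 ± 0.15 (SE) for Adcyap1, with adjusted p = 0.00188 in edgeR, and it was called with each of the 14 libraries left out in turn. It was -0.87 ± 0.21 for Crh (adjusted p = 0.0203), 1.68 ± 0.43 for Cartpt (adjusted p = 0.0247) and 1.05 ± 0.27 for Tac2 (adjusted p = 0.0254), all in edgeR. The Cartpt call was lost in edgeR without progenitor mutant 3 (adjusted p = 0.0501) or without postmitotic control 1 (0.0599), control 3 (0.0615) or mutant 1 (0.113). That of Tac2 was lost without postmitotic control 1 (0.0581), control 2 (0.0694) or mutant 3 (0.0525), and that of Crh without postmitotic control 3 (0.0513). For the other 6 precursors the difference did not pass, and its size ranged from -0.24 ± 0.27 for Cck to 0.39 ± 0.23 for Sst. Y-linked counts exceeded 1 CPM in 0 of 4 progenitor controls and 3 of 4 progenitor mutants. In the postmitotic experiment they did so in 2 of 3 controls and 1 of 3 mutants. The interaction was not refitted with a Y-linked covariate, so sex and these differences cannot be fully told apart.

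**Figure D3:**
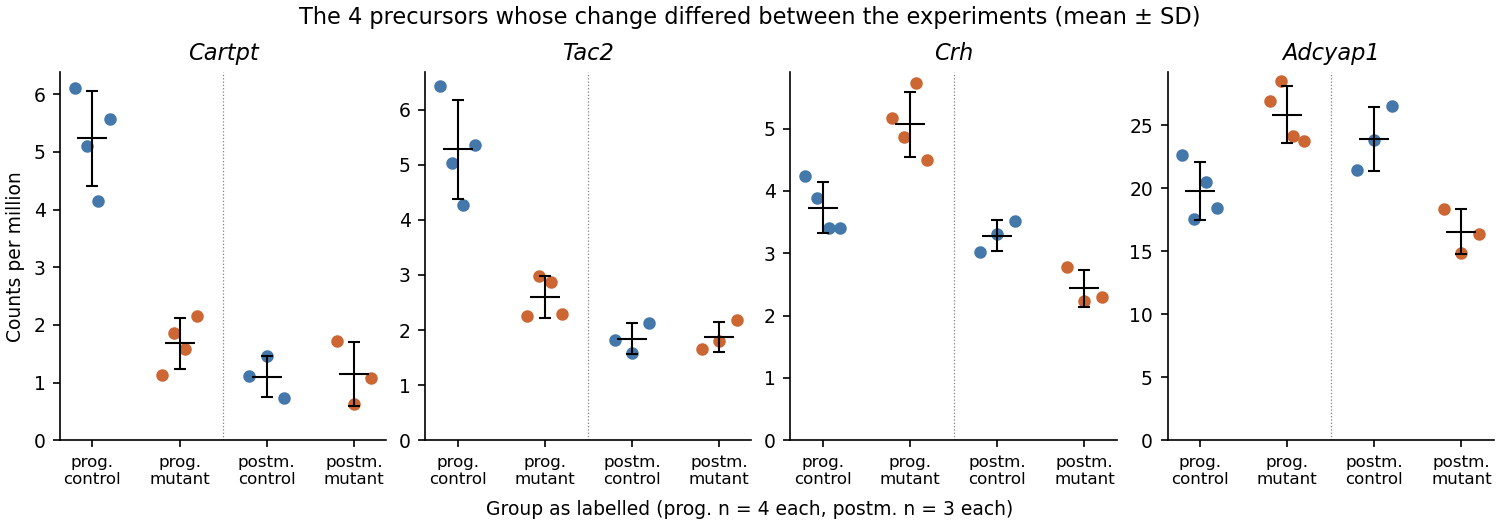
CPM of Cartpt, Tac2, Crh and Adcyap1 in every library, with mean ± SD per group (n = 4 in each progenitor group, n = 3 in each postmitotic group); each axis starts at 0, and the 2 experiments come from separate tables. Adcyap1 of the mutants is above the controls on the left of the dotted line and below them on the right.

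Precursors of interneurons were also read relative to interneuron transcripts, since in bulk tissue fewer cells of a type and less RNA per cell cannot be told apart. The reference was the summed CPM of Gad1 and Gad2, which make GABA, Slc32a1, its vesicular transporter, and Lhx6, a factor of Sst and Pvalb interneurons. This sum was 180 to 233 CPM in progenitor controls and 168 to 184 CPM in progenitor mutants, and 153 to 164 CPM and 167 to 176 CPM in the postmitotic groups. In edgeR, Slc32a1 (-0.53, adjusted p = 0.00452) and Gad1 (-0.33, adjusted p = 0.0167) were themselves called lower in the progenitor mutants. Gad2 (-0.22) and Lhx6 (0.20) were not called. The reference was therefore not steady there, and a lower reference raises each ratio in the mutants. In the progenitor experiment, Crh stood at 1.46 to 2.16 CPM per 100 CPM of the reference in controls and at 2.44 to 3.42 in mutants. The log2 ratio was higher by 0.67 (exact two-sided permutation p = 0.0286, the smallest that 4 against 4 allows, and 0.286 adjusted over the 10 ratios tested). Sst kept ratios of 21.9 to 25.8 in controls and 20.4 to 25.4 in mutants, a log2 difference of -0.07 (exact permutation p = 0.543). Npy was at 9.24 to 11.7 and 11.6 to 13.6 (0.31, exact permutation p = 0.0571), Vip at 5.84 to 10.2 and 6.36 to 9.53, and Tac1 at 0.420 to 1.05 and 0.718 to 0.980.

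The reference sum was higher in every postmitotic mutant than in any postmitotic control, and a higher reference lowers each ratio in the mutants. In the postmitotic experiment the Crh ratio was 1.97 to 2.15 in controls and 1.33 to 1.58 in mutants. That is a log2 difference of -0.52 (exact two-sided permutation p = 0.1, the smallest that 3 against 3 allows). With these smallest p-values, none of the 10 ratios could pass 0.05 after adjustment, so the adjusted values say nothing for or against a difference. Among the 5 progenitor ratios, that of Crh had an unadjusted exact permutation p under 0.05. The CPM of Crh already had no overlap between these groups, so this is no separate support for its rise.

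**Figure D4:**
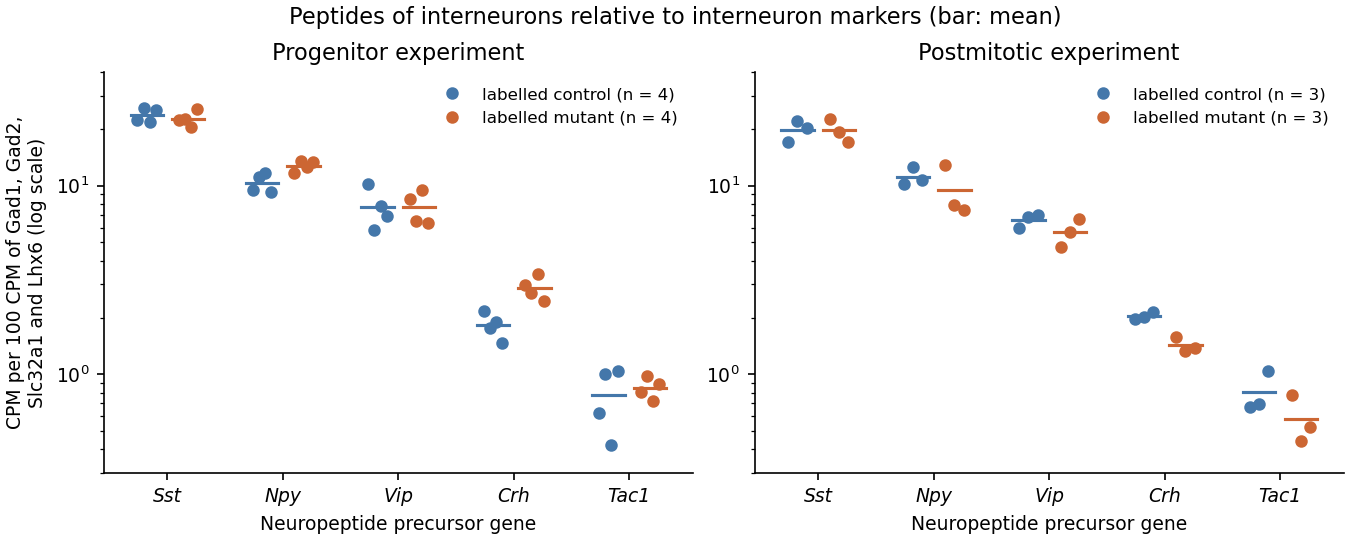
CPM of 5 interneuron peptides per 100 CPM of Gad1, Gad2, Slc32a1 and Lhx6 in each library (log axis), progenitor experiment left (n = 4 per group) and postmitotic right (n = 3 per group); bars are means. Crh of the mutants lies above all controls on the left (2.44 to 3.42 against 1.46 to 2.16) and below them on the right.

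Of 31 tested markers of cortical interneurons, 4 rose and 3 fell in the progenitor mutants, or 22.6%, near the 23.4% called among all genes (median log2 fold change -0.05). Among them were Slc32a1 (-0.53 ± 0.10), Cnr1, a cannabinoid receptor (0.42 ± 0.08), and Npas1 (0.38 ± 0.07). Their summed level was 1735 to 2070 CPM in controls and 1823 to 2003 CPM in mutants, and Pvalb, which marks late-maturing interneurons, was at 0.415 CPM or less in every progenitor library. In the postmitotic mutants 1 rose and 1 fell, Cnr1 and Satb1, a chromatin factor also found in excitatory neurons (-1.16 ± 0.06), with sums of 1868 to 1954 and 1741 to 1899 CPM. The Cnr1 call was lost without postmitotic control 1, 2 or 3 or mutant 2 or 3, with adjusted p up to 0.193 in edgeR. With the Y-linked covariate, 2 interneuron markers rose and 1 fell in the progenitor experiment. With 1 progenitor library left out 2 to 6 of these markers rose and 2 to 6 fell. Under the other settings 2 to 5 rose and 1 to 6 fell. Among 19 deep-layer and subplate markers 3 fell in the progenitor mutants (sums of 695 to 990 in controls and 601 to 925 CPM in mutants; 0 to 5 fell with 1 library left out and 1 to 8 under the other settings). In the postmitotic mutants 5 rose (744 to 770 CPM in controls against 873 to 1065 CPM in mutants), while 0.895% of all genes were called higher. With 1 library left out 2 to 8 of these markers rose, and 1 to 11 under the other settings. Of 12 astrocyte markers 4 fell in the progenitor mutants (sums of 3209 to 3931 CPM in controls and 2710 to 3270 CPM in mutants), and 1 fell with the Y-linked covariate. The astrocyte median was -0.08, and 0 rose, or 0 to 4 with 1 library left out. Of all genes, 12% rose and 11.4% fell in the progenitor mutants. Of 12 microglia markers 2 fell (162 to 237 and 133 to 178 CPM), and 0 to 2 with 1 library left out. These 2, Ctss and Aif1, were not called with the Y-linked covariate (adjusted p = 0.547 and 0.578, edgeR). Of 12 endothelial and mural markers 3 rose (338 to 512 and 404 to 597 CPM), and 1 to 7 with 1 library left out. Of 10 oligodendrocyte lineage markers 3 rose and 0 fell (547 to 639 and 579 to 694 CPM). The median of that list was -0.11, and 0 to 3 of its markers fell with 1 library left out. In the postmitotic mutants edgeR called 0 in each of these 4 lists, where 7 astrocyte and 1 endothelial marker had an unadjusted p under 0.05 and DESeq2 called 2 astrocyte markers lower. Postmitotic astrocyte sums were 1596 to 1819 CPM in controls and 1438 to 1572 CPM in mutants. The part of these cell populations in the precursor changes was not tested.

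Receptors of the precursors' peptides were listed together with a binding protein and peptidases. Of 22 list members tested, 1 fell and 0 rose in the progenitor mutants (median -0.21), against the 11.4% of all genes called lower. It was Tacr3, the receptor of the Tac2 product, with 5.91 to 7.43 CPM in controls and 3.48 to 4.57 CPM in mutants (-0.67 ± 0.13, adjusted p = 0.00433, edgeR). Fallen members numbered 3 without progenitor control 1 or control 3 and 2 without control 4, and 4 with DESeq2. Tacr1, the substance P receptor, had 4.34 to 5.42 CPM and 4.15 to 5.93 CPM (0.01 ± 0.15). Adcyap1r1, the PACAP receptor, had 208 to 246 CPM and 233 to 249 CPM (0.04 ± 0.06), and Crhr1, the main CRH receptor, had 49.2 to 61.4 CPM and 44.5 to 56.3 CPM (-0.17 ± 0.09).

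In the postmitotic mutants, 3 of 21 tested members rose and 1 fell (median -0.11), against 0.895% and 1.06% of all genes. Tacr1 rose from 2.04 to 2.57 CPM in controls to 9.61 to 11.95 CPM in mutants (2.19 ± 0.16). Sstr2, a somatostatin receptor, rose by 0.86 ± 0.08 (19.8 to 22.0 CPM against 37.1 to 38.8 CPM). Mme, a peptidase that degrades several of these peptides and no receptor, rose by 0.63 ± 0.12 and was named after its value was seen. With 1 library left out 2 to 3 list members rose, and 2 to 3 under the other settings. Tacr1 and Sstr2 were called under all 16 alternatives, so where only 2 rose the call of Mme was lost. Crhr1 fell by 0.71 ± 0.13, from 44.6 to 46.9 CPM in controls to 22.4 to 34.3 CPM in mutants (adjusted p = 0.0126, edgeR). That call was lost without postmitotic control 1 (adjusted p = 0.087), control 2 (0.0609) or mutant 1 (0.0608) in edgeR. Tacr3 (-0.15 ± 0.19) and Adcyap1r1 (-0.11 ± 0.07) did not pass the test.

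Of 39 genes of dense core vesicles and peptide processing, 14 fell and 1 rose in the progenitor mutants, while 24 did not pass the test. The median was -0.16, and 11.4% of all genes were called lower. The 3 with the smallest p were Scg5, the chaperone of the convertase Pcsk2 (220 to 281 CPM in controls, 127 to 146 CPM in mutants, -0.85 ± 0.07), Ica1, a vesicle trafficking protein (-0.43 ± 0.07), and Pcsk1, a proprotein convertase (5.32 to 8.32 CPM against 3.73 to 4.02 CPM, -0.87 ± 0.15). With the Y-linked covariate the number that fell was 8, and these 3 stayed called. In the postmitotic mutants 2 of 39 fell, Cadps2, a priming factor of dense core vesicles (-1.20 ± 0.08), and Syt4, a synaptotagmin of such vesicles (-0.40 ± 0.07), and the median was -0.06. Of all genes, 1.06% were called lower there. Pcsk2 itself did not pass (-0.30 ± 0.08, adjusted p = 0.105, edgeR).

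Other peptide precursors were mostly too low to test. Of 49 listed, 22 passed the filter in the progenitor experiment, and 4 of them, or 18.2%, fell while 0 rose, against 11.4% of all genes called lower. The median was -0.32, 10 of the 22 had an unadjusted p under 0.05, and 1 rose with DESeq2. Pdyn, the dynorphin precursor, had 8.65 to 16.9 CPM in controls and 5.73 to 6.48 CPM in mutants (-1.13 ± 0.17). Nppc, the precursor of C-type natriuretic peptide, had 3.93 to 4.44 CPM and 1.78 to 2.67 CPM (-0.94 ± 0.16). Calca, the gene of calcitonin and CGRP, had at most 32 counts in any library (-2.39 ± 0.47). The fourth, Ecel1, encodes a peptidase and no precursor, and was named after its value was seen. With the Y-linked covariate 2 of these calls stayed, those of Nppc and Calca. In the postmitotic experiment 1 of 18 rose and 0 fell, against 0.895% and 1.06% of all genes. It was Grp, the precursor of gastrin-releasing peptide, with 13.7 to 19.3 CPM in controls and 27.8 to 32.2 CPM in mutants (0.84 ± 0.12, adjusted p = 0.00226, edgeR).

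**Figure D5:**
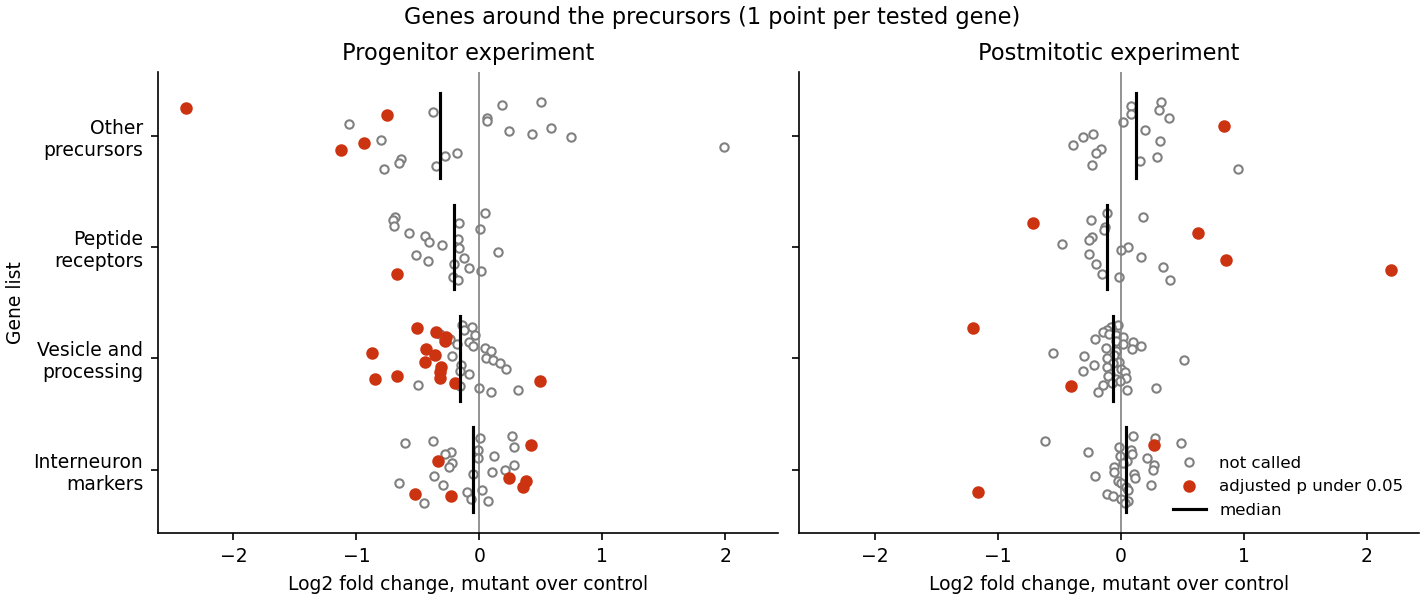
Log2 fold change of every tested gene in 4 lists (other precursors, receptors of the peptides, vesicle and processing genes, interneuron markers) in the progenitor (left) and postmitotic (right) experiments; filled points passed an adjusted p under 0.05 and black lines are list medians. Of the 39 vesicle and processing genes, 14 filled points lie left of 0 in the progenitor panel and 2 in the postmitotic panel.

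Genes of the cAMP and activity response, which include factors that act through the CRE, went both ways. In the progenitor mutants 4 of 24 rose and 4 fell, against 12% and 11.4% of all genes. The median was 0.05, and with 1 library left out 3 to 5 rose and 2 to 6 fell. Crtc3, a CREB coactivator, was at 0.53 ± 0.09, Nr4a1, an early response gene, at 0.51 ± 0.09, and Egr3, another, at -0.51 ± 0.08. The Nr4a1 and Egr3 calls were lost with the Y-linked covariate (adjusted p = 0.0551 and 0.0626, edgeR). In the postmitotic mutants 1 of 24 fell, against 1.06% of all genes. It was Egr3 (-1.05 ± 0.21), and its call was lost without control 1, 2 or 3 or mutant 1, with adjusted p up to 0.204 in edgeR. Of the genes with a full CRE in the windows above, Cartpt was called lower in the progenitor experiment and Sst (-0.31) was not. Sst was called lower there without control 3 (adjusted p = 0.0384) and with the replicate block (0.0172), both in edgeR. The part of the CRE in these changes was not tested.

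The authors' deposited table for the progenitor experiment called 4 of the 10 precursors at an adjusted p under 0.05, namely Cartpt (log2 fold change -1.65), Tac2 (-1.03), Adcyap1 (0.38) and Crh (0.44). The authors' deposited postmitotic table called 0 of 10, with Adcyap1 at -0.44 and an adjusted p of 0.26. Its mean counts matched libraries 1 and 2 of each group within 0.1% for 100% of 17372 genes, and all 6 libraries for 0.789%, so it holds fewer libraries than the counts tested here.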

How the data were processed

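The authors deposited raw counts for each gene symbol as whole numbers, 1 table per experiment, and for each a DESeq2 results table with mean normalised counts (signal), log2 fold changes, their standard errors, a Wald statistic (score), p-values and adjusted p-values, per the file headers. HISAT2, featureCounts, DESeq2 and build mm10 are named in the submitters' processing notes. Their versions, the annotation and the strandedness of counting: not given in the sources used here. Missing values in the deposited tables are written as 0. The files held 0 columns of other samples.

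The tables were fitted separately with edgeR 4.0.16 (R 4.3.3) (filterByExpr, TMM, robust quasi-likelihood F test, Benjamini-Hochberg over all genes tested, threshold 0.05), and the difference between experiments as an interaction over the 24690 shared symbols. Each SE came from the fold change and its F value, and CPM use TMM-scaled totals. Replicate pairs were distinct libraries (chi-square over degrees of freedom 6.31 to 19.6). On simulated counts of the progenitor design (15178 genes), 67% of genes changed 1.5-fold and 87% of those changed 2-fold were recovered. In the postmitotic design (17542 genes) these shares were 57% and 74%. Of the calls, 6.1% were false in the progenitor and 7.09% in the postmitotic design. Each simulation changed 100 genes per fold and held no difference in sex, unlike the progenitor libraries. The precursors and gene lists were chosen with earlier results of these data known. Besides all precursors and Lhx2, up to 3 genes per list with the smallest p and the receptors of called precursors were named. The list of receptors also holds a binding protein and peptidases. Alternatives were DESeq2 1.42.0, limma-voom (limma 3.58.1), other scaling and filters, no robust step, a block for replicate number, a Y-linked covariate, a joint fit of 14 libraries, and each library left out. For the interaction they were DESeq2, upper quartile scaling, no filter, the replicate block and each library left out. Exon lengths and positions are from GENCODE M21 (GRCm38), promoters from RefSeq.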

Additional observations from a re-analysis of the deposited data

Results flagged for a closer look

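The response of 4 precursors differed between the experiments in edgeR's test of the interaction, given as postmitotic minus progenitor log2 fold change. The difference was 1.68 for Cartpt and 1.05 for Tac2, which fell in the progenitor mutants. It was -0.87 for Crh and -0.92 for Adcyap1, both higher in the progenitor mutants. Of these, Adcyap1 alone was called in each experiment taken by itself, in opposite directions. Its progenitor call was lost with the Y-linked covariate (adjusted p = 0.0902, edgeR). The share of libraries with Y-linked counts rose from controls to mutants in the progenitor experiment and fell in the postmitotic one. The interaction was not refitted with that covariate. Dixon's test for a library standing apart flagged 0 of 32 progenitor groups of 4 (precursor levels, ratios and reference sums). With 4 libraries it can flag only an extreme value, so it does not show that none stood apart. For example, Penk had 4.57 CPM in progenitor mutant 1 and 2.76, 2.66 and 3.20 CPM in mutants 2 to 4. With 1 library left out, its progenitor log2 fold change ranged from -0.49 to -0.18.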

How the results depend on the processing

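The number of genes called in the progenitor experiment, 3577, became 1255 once Y-linked CPM entered as covariate and 2383 to 3712 with 1 library left out. Precursors called there, 4, numbered 2 with that covariate and 3 to 4 with 1 library left out. The postmitotic count of 348 was 527 with DESeq2, 723 without the filter on low counts, and 160 to 467 with 1 library left out. The 1 precursor called there, Adcyap1, was lost without the robust step (adjusted p = 0.0546) and with the replicate block (adjusted p = 0.067), both in edgeR, leaving 0 precursors called, and 0 to 1 were called with 1 library left out. The 1086 genes whose change differed between the experiments were 1649 with DESeq2, 659 with the replicate block and 598 to 1481 with 1 library left out, and the 4 such precursors were 1 with the block (Adcyap1) and 2 to 4 with 1 library left out. The replicate numbers share no stated origin. Deviations of same-numbered libraries correlated at -0.44 to 0.09 in the progenitor and -0.20 to 0.03 in the postmitotic experiment, and 1 of 4 and 0 of 3 controls correlated best with their own number, so the block is a check only. With it, Sst was called lower in the progenitor experiment (adjusted p = 0.0172) while Crh there (0.0677) and Lhx2 in the postmitotic experiment (0.114) were not called, all in edgeR, and without the filter Crh had adjusted p = 0.0505. Among called precursors, 0 changed sign under these alternatives. The peptide ratios could not pass the adjusted threshold in this design, so they are not read for stability. Cartpt and Tac2 were called in the progenitor experiment under all 18 alternatives. Low counts limit the precision for Tac1 and postmitotic Cartpt.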
